A study of Mus musculus with 6 samples.

Results

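The genes described here are 10 genes of the MHC class I presentation pathway. The cultures received the peptide SIINFEKL itself, and whether its display to OT-I T cells used the transporter, tapasin or proteasome genes was not tested. They are the heavy chain genes H2-K1 and H2-D1, the light chain gene B2m, the peptide transporter genes Tap1 and Tap2, the tapasin gene Tapbp, the transactivator gene Nlrc5, and the immunoproteasome genes Psmb8, Psmb9 and Psmb10. They were chosen by name from knowledge of the pathway, with earlier results of these data known. All 10 were found among the 49671 genes of the count tables and passed the filter on low counts, which kept 13996 genes. The study sequenced total RNA of mouse splenocytes of OT-I genotype, labelled as naive primary CD8 T cells, after 48 h with the SIINFEKL peptide presented on antigen-presenting cells. All cultures carried the OT-I transgene and received the peptide, and they differed in treatment: BiTS, BiTS(mut) or isotype, with 2 libraries each. BiTS belongs to work on bringing the inhibitory receptor LAG-3 close to the T cell receptor, and the labels do not describe the mutation of BiTS(mut), the isotype control or the animals. There was no culture without peptide, so no level here shows what the peptide did. The library titles carry the numbers 1 to 6, which place the first library of each treatment (isotype replicate 1 among them) in set 1 and the second (with isotype replicate 4) in set 2. What a set stands for is not given.

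Class I molecules are carried by nearly all nucleated cells. The proteasome cuts cytosolic proteins into peptides, the TAP transporter moves the peptides into the endoplasmic reticulum, and tapasin and its partners load them onto a heavy chain paired with beta-2-microglobulin. Interferon gamma raises many of these genes together: it brings in the transcription factor IRF1, the transactivator NLRC5, and 3 catalytic subunits that replace those of the constitutive proteasome. In mice of the b haplotype, SIINFEKL, a peptide of chicken ovalbumin, is presented by the product of H2-K1, and the complex is what the OT-I receptor recognises.

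Sequences from the RefSeq promoter table (GRCm38.p6) show the control elements known for these promoters, and were read over the 250 bases before each gene's start on both strands. The table held 8 of the 10 members. Tap2 and Nlrc5 were without an entry. The 4 patterns searched were picked with these sequences in view: the kappaB core GGGATTCCC, the interferon element core TTTCACTTC, the spaced interferon pattern GAAANNGAA, and TGACG followed after 20 bases by ATTGG, the letters of the X2 and Y boxes that class I promoters use with NLRC5. The H2-K1 stretch lies at chr17:34000349-34000467 on the minus strand, 134 to 16 bases before the annotated start, and the B2m stretch at chr2:122147538-122147648 on the plus strand, 149 to 39 bases before it. Both lie outside the deposited exons of their genes. Capitals mark the matches.
H2-K1: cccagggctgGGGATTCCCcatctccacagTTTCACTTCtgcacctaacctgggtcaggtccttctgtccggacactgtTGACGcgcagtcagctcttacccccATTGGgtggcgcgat
B2m: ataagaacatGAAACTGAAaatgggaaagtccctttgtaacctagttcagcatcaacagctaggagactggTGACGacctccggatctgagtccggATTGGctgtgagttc

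The heavy chain genes shared the upstream block almost letter for letter. Below, the 29 bases from the kappaB core to the interferon core are set side by side, at chr17:34000429-34000457 (minus strand) for H2-K1 and chr17:35262924-35262952 (plus strand) for H2-D1.
H2-K1: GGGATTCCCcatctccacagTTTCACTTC
H2-D1: GGGATTCCCcatctcctcagTTTCACTTC
The blocks had 28 of 29 bases in common. Unlike the H2-K1 and B2m stretches, the H2-D1 blocks lie inside exons of the deposited gene, which begins 364 bases before the RefSeq start. The block from TGACG to ATTGG was at chr17:34000359-34000388 (minus strand) in H2-K1, chr17:35262993-35263022 (plus strand) in H2-D1 and chr2:122147609-122147638 (plus strand) in B2m.
H2-K1: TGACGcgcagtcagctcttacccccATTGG
H2-D1: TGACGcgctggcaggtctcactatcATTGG
B2m: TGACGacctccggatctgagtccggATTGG
Between the capitals, H2-K1 and H2-D1 had 13 of 20 bases in common, and H2-K1 and B2m 3 of 20. Among all 32851 promoters of the table, 0.301% held the kappaB core, 0.402% the interferon core, 7.13% the spaced interferon pattern and 0.0913% the TGACG and ATTGG pair. The patterns were not particular to the members. Of 11 class I-like heavy chain genes with an entry, 5 held the interferon core (H2-Q4, H2-Q6, H2-Q7, H2-Q10 and H2-M3). The kappaB core was in 2 (H2-Q6 and H2-Q7), the spaced interferon pattern in 2 (H2-T22 and H2-T23) and the pair in 1 (H2-M3). None of the 4 patterns was found in the windows of Tap1, Tapbp, Psmb8, Psmb9 or Psmb10. The windows of Tapbp (chr17:33919228-33919477), Psmb8 (chr17:34197945-34198194) and Psmb9 (chr17:34187331-34187580) lie within the span of the deposited genes. For these 3 the bases before the deposited gene were not searched. A match is a description of letters, and no binding was measured.

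The libraries held between 10813123 and 15239077 counts in genes. Levels are given as CPM, counts scaled to a common library size by the TMM method. The lowest count of any member was 699, in Psmb10. ERCC spike-in RNA took 3.36% to 4.03% of all counts in set 1 and 5.14% to 7.54% in set 2. The CD8 T cell markers were present, with the 10 listed genes at a summed 2009 to 2443 CPM in set 1 and 2531 to 2742 CPM in set 2. Dendritic cell markers were present too, at 1821, 1829 and 1500 CPM (isotype, BiTS(mut), BiTS) in set 1 and 1140, 1181 and 1088 CPM in set 2, with 11 of 14 markers passing the filter and Siglech at 0 in every library. Macrophage and monocyte markers summed to 30.3 to 49.5 CPM, NK cell markers to 14.3 to 21.9 CPM, stromal and endothelial markers to 14.2 to 24.3 CPM, and B cell markers to 3.12 to 5.35 CPM. Neutrophil markers stayed at or below 0.55 CPM and erythroid markers at or below 1.04 CPM. The smaller sums rest on few genes. The NK cell sum was mostly Eomes (mean 13.8 CPM), with Ncr1 at 0.01 and Klrb1c at 0.07 CPM. The stromal and endothelial sum was mostly Pecam1 (11.8 CPM), with Col1a2 at 0.09 and Cdh5 at 0.13 CPM. The macrophage and monocyte sum was led by Cd68 (16.4) and Ly6c2 (9.05 CPM), with Adgre1 at 0.28 CPM. In the dendritic cell sum Ccr7 (mean 598.2) and Ccl22 (277.5 CPM) weighed most, while Flt3, Zbtb46, Xcr1 and Clec9a had means of 12.3 to 28.6 CPM. The size of a sum is therefore no measure of a cell type's share of the RNA. Markers of CD8 T cells and of dendritic cells were thus both present. In bulk RNA fewer cells of a type and less RNA per cell cannot be told apart. No label ties the libraries to separate cultures or animals, so p-values reflect the spread between these 6 samples alone, which may be technical.

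Levels of different genes are compared per kilobase of exon, which assumes that all annotated exons are used. By mean CPM alone the order differs: Tap1 (550.5) lies above Psmb8 (461.6), and Nlrc5 (315.4) above Psmb9 (227.0 CPM). B2m stood at 1041 ± 222 and H2-K1 at 1029 ± 94.8 CPM per kb (mean ± SD over the 6 libraries), and their ranges overlapped. H2-D1 followed at 709 ± 30.0 CPM per kb, and these 3 genes ranked above 99.5% of the tested genes. Psmb8 (169 ± 15.6), Tap1 (100.5 ± 4.54), Tap2 (71.9 ± 1.74) and Psmb9 (62.1 ± 1.61 CPM per kb) came next, with no overlap between neighbours. The lowest levels were those of Tapbp (41.6 ± 6.23), Psmb10 (39.2 ± 8.10) and Nlrc5 (37.1 ± 2.72 CPM per kb), and neighbours in this last group overlapped. Nlrc5, the lowest, still lay above 89.6% of the tested genes. The steadiest member was Tap2, whose highest library was 1.05 times its lowest. Psmb10 (1.65 times) and B2m (1.59 times) varied most.

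**Figure D1:**
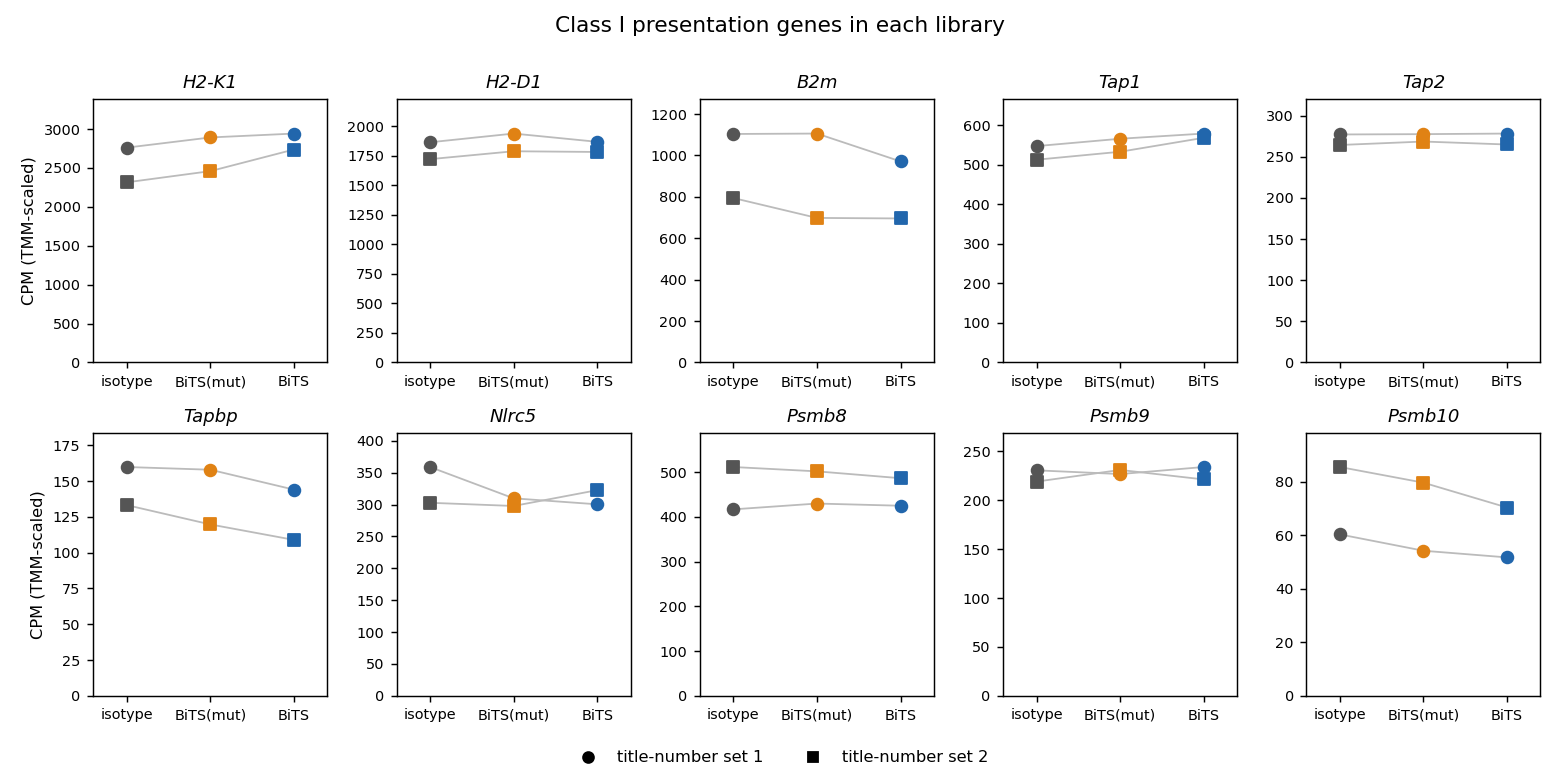
TMM-scaled CPM (y axis, from 0, own scale per gene) of each of the 10 members in the 6 libraries; circles are set 1, squares set 2, grey lines join the libraries of a set. The sets do not overlap for 7 of 10 members (55.7% of all tested genes): H2-K1, H2-D1, B2m, Tap2, Tapbp, Psmb8 and Psmb10. H2-K1 and Tap1 are ordered upward and Tapbp and Psmb10 downward from isotype to BiTS in both sets.

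The classical heavy chains were the members with the most reads. H2-K1 was at 2761 and 2315 CPM in isotype (set 1 and set 2), 2892 and 2459 CPM in BiTS(mut), and 2942 and 2737 CPM in BiTS. In each set the order was isotype, BiTS(mut), BiTS from low to high, but the groups overlapped because set 2 lay lower. H2-D1, the second classical heavy chain, was at 1866 and 1723 CPM in isotype, 1940 and 1790 CPM in BiTS(mut), and 1870 and 1784 CPM in BiTS. BiTS lay between the other groups in both sets. B2m, which encodes the light chain shared by all class I molecules, was at 1104 and 794.5 CPM in isotype, 1106 and 698.3 CPM in BiTS(mut), and 971.5 and 695.7 CPM in BiTS. BiTS was the lowest in both sets, though in set 2 it lay close to BiTS(mut). The H2-K1 and H2-D1 counts carry an extra uncertainty: 3.1% and 5.4% of the distinct 75-base stretches of their transcripts also occur in other genes, led by H2-Q10 for H2-K1 and H2-Q1 for H2-D1. None of the stretches of B2m did.

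Among the genes that bring peptide to the heavy chain, Tap1 and Tapbp were ordered oppositely across the treatments. Tap1, 1 of the 2 chains of the peptide transporter, was at 546.7 and 512.3 CPM in isotype, 565.3 and 532.4 CPM in BiTS(mut), and 578.4 and 567.7 CPM in BiTS. Its BiTS libraries lay above all 4 others. Tap2, its partner in the transporter, was at 277.2 and 264.4 CPM in isotype, 277.6 and 268.6 CPM in BiTS(mut), and 278.3 and 265.0 CPM in BiTS. Within a set the 3 Tap2 libraries lay within 4.2 CPM of each other. Tapbp, which encodes tapasin, the bridge between the transporter and the empty class I molecule, was at 159.8 and 133.2 CPM in isotype, 157.9 and 119.7 CPM in BiTS(mut), and 144.0 and 108.9 CPM in BiTS. BiTS was lowest and isotype highest in both sets, with overlap across sets. Tap1 shares 212 exon bases with Psmb9 on the opposite strand, and Tapbp shares 665 with Gm19412, an antisense gene of at most 7 counts. Since the strand setting of the counting is not given, reads in such shared bases cannot be assigned.

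Nlrc5, the transactivator of class I genes, was at 358.9 and 302.8 CPM in isotype, 309.8 and 297.8 CPM in BiTS(mut), and 300.4 and 322.6 CPM in BiTS. Isotype replicate 1 was the highest library, and the other 5 lay between 297.8 and 322.6 CPM. BiTS was the lowest of set 1 and the highest of set 2, a log2 difference from isotype of -0.26 in set 1 and 0.09 in set 2.

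The immunoproteasome genes did not share one pattern. Psmb8, which encodes the chymotrypsin-like subunit beta-5i, was at 416.6 and 511.2 CPM in isotype, 429.6 and 501.5 CPM in BiTS(mut), and 424.7 and 486.2 CPM in BiTS. Set 2 was higher in every group. Psmb9 (beta-1i) was at 230.5 and 219.0 CPM in isotype, 226.7 and 230.9 CPM in BiTS(mut), and 233.9 and 221.2 CPM in BiTS, and neither sets nor treatments separated it. Psmb10 (beta-2i) was at 60.3 and 85.4 CPM in isotype, 54.2 and 79.6 CPM in BiTS(mut), and 51.7 and 70.3 CPM in BiTS. Isotype was highest and BiTS lowest in both sets, and all set 2 libraries lay above all set 1 libraries.

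Each immunoproteasome subunit takes the place of a constitutive one, so their ratio per kilobase of exon describes the balance of the transcripts. Psmb8 over Psmb5 was 1.69, 1.83 and 1.996 in set 1 (isotype, BiTS(mut), BiTS) and 1.43, 1.42 and 1.64 in set 2. Psmb9 over Psmb6 was 0.746, 0.736 and 0.849 in set 1 and 0.531, 0.531 and 0.547 in set 2. For both pairs BiTS had the highest ratio of its set and set 1 lay above set 2. Psmb10 over Psmb7 was 0.982, 0.897 and 0.888 in set 1 and 1.41, 1.47 and 1.44 in set 2, with no common order of treatments. The constitutive genes themselves were lowest in BiTS in both sets: Psmb5 at 78.5, 74.8 and 67.7 CPM, then 113.9, 112.2 and 94.5 CPM, Psmb6 at 158.1, 157.6 and 140.9 CPM, then 211.1, 222.4 and 207.0 CPM, and Psmb7 at 123.2, 121.2 and 116.8 CPM, then 121.5, 108.8 and 98.1 CPM. With 2 libraries a group these ratios were not tested, and dividing by length assumes that all annotated exons are used. By plain counts Psmb9 over Psmb6 was above 1 and Psmb10 over Psmb7 below 1 in every library. Only differences between libraries, not the side of 1, can be read from these 2 pairs.

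**Figure D2:**
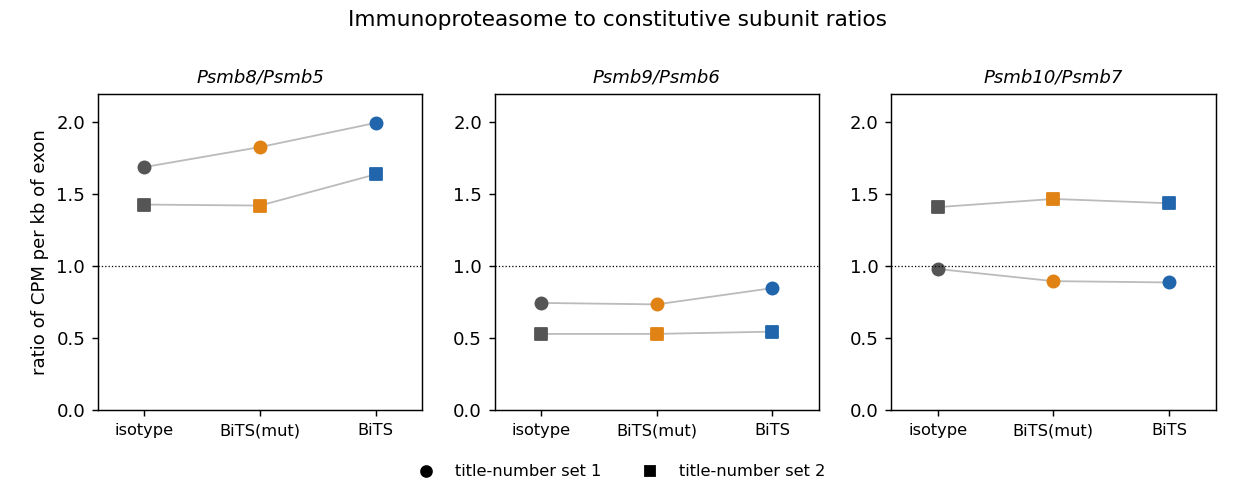
Ratio of CPM per kb of exon (y axis, from 0) for each immunoproteasome gene over the constitutive gene it replaces, by treatment; circles are set 1, squares set 2, the dotted line is a ratio of 1. Psmb8/Psmb5 is above 1 in all 6 libraries, Psmb9/Psmb6 below 1 in all 6, and Psmb10/Psmb7 below 1 in set 1 and above 1 in set 2. The side of 1 depends on the exon lengths. Ratios of plain counts are 1.04 to 1.66 for Psmb9/Psmb6 and 0.443 to 0.732 for Psmb10/Psmb7.

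The comparison of BiTS with isotype asks what BiTS does to peptide-stimulated OT-I cultures. In it no class I member passed the test, while Ifng, the gene of the cytokine that induces them, was far below its isotype level. Ifng was at 83.7 and 198.1 CPM in isotype, 81.8 and 151.2 CPM in BiTS(mut), and 33.8 and 56.9 CPM in BiTS. Both BiTS libraries lay below the other 4. Fitted with a term for the set, Ifng fell by 1.57 ± 0.10 on the log2 scale (SE), 2.97-fold lower (edgeR's quasi-likelihood test, adjusted p = 1.48e-16). The class I members spanned log2 fold changes from -0.25 (Psmb10) to 0.17 (H2-K1) in the same fit. Their median was -0.009, beside -0.005 over all tested genes.

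Without a set term, edgeR's quasi-likelihood test called 0 of 10 members for BiTS against isotype at a Benjamini-Hochberg adjusted p under 0.05, as did DESeq2 and limma-voom. It called 0% of all genes as well, with 1.26% of them and none of the members at an unadjusted p under 0.05, so that fit had no call to give to any gene, Ifng included (-1.64 ± 0.51, adjusted p = 1). With the set term it again called 0 of 10, against 3.4% of all genes. At an unadjusted p under 0.05 there were 4 of 10, against 14.8% of all genes. These were Psmb10 (-0.25 ± 0.09, adjusted p = 0.147), Tapbp (-0.22 ± 0.085, adjusted p = 0.171), B2m (-0.19 ± 0.08, adjusted p = 0.230) and H2-K1 (0.17 ± 0.08, adjusted p = 0.297 by the same test). The set term leaves 2 residual degrees of freedom per gene, joined by 45.95 borrowed from the spread shared over genes, so these errors rest mostly on other genes.

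In the fit with the set term, the 95% interval of the log2 fold change of H2-K1 ran from 0.01 to 0.32, that of B2m from -0.35 to -0.03, that of Tapbp from -0.39 to -0.05 and that of Psmb10 from -0.44 to -0.06. Tap1 was at 0.11 (from -0.05 to 0.28), H2-D1 at 0.03 (from -0.13 to 0.18), Tap2 at 0.004 (from -0.16 to 0.17) and Nlrc5 at -0.08 (from -0.26 to 0.09). Psmb8 was at -0.02 (from -0.18 to 0.14) and Psmb9 at 0.02 (from -0.15 to 0.18). No interval reached a change of 1 log2 unit. Without the set term the intervals were wider, up to -0.95 to 0.44 for Psmb10 and -0.92 to 0.55 for B2m. Tap2 and H2-D1 turned negative under scaling by library totals, Psmb9 likewise, and Psmb8 turned positive under spike-in scaling. Calls could turn on a single library. With the set term and without isotype replicate 1, H2-K1 was at 0.20, B2m at -0.24 and Tapbp at -0.29 on the log2 scale. These values were larger in size than with all libraries, in a fit with 1 isotype library.

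**Figure D3:**
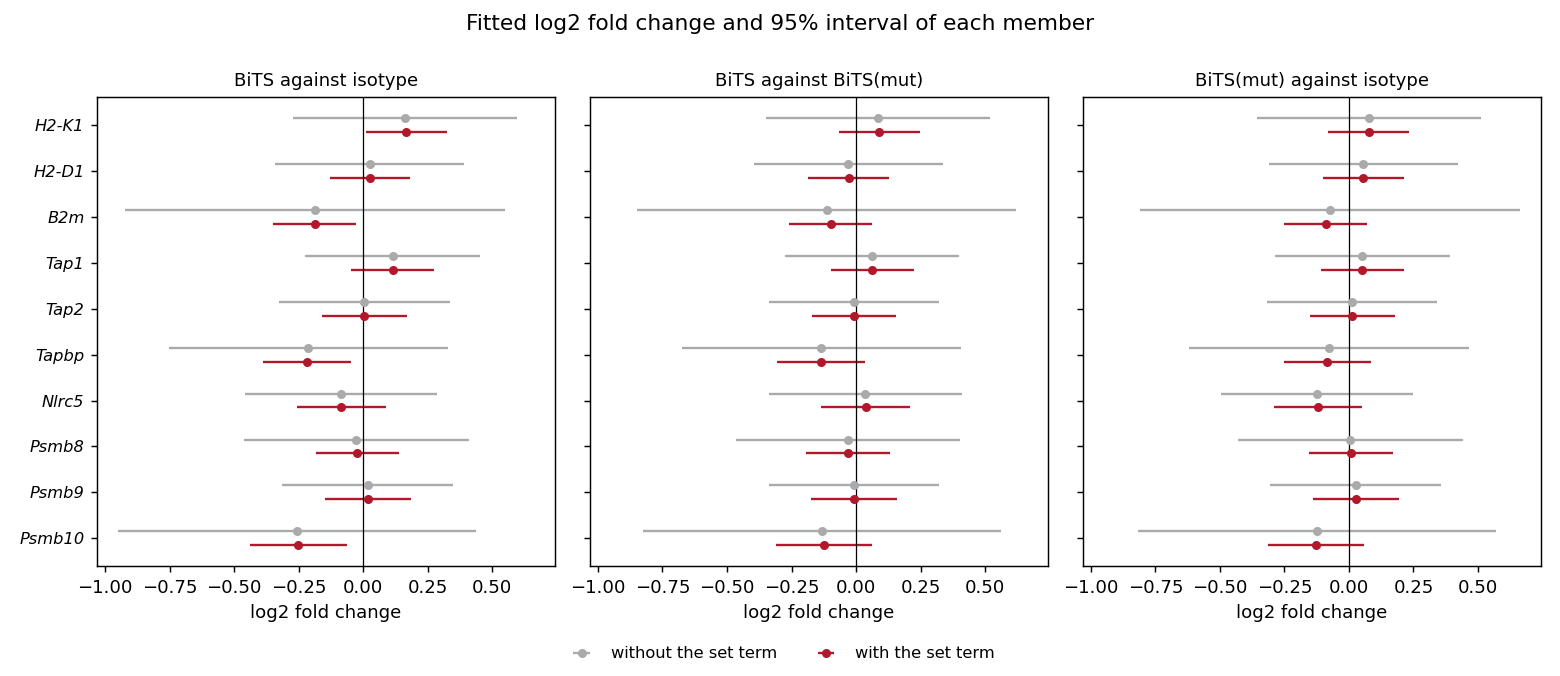
Log2 fold change (x axis) of each member with its 95% interval, in the 3 treatment comparisons; grey is the fit without the set term, red the fit with it. All points lie between -0.26 and 0.17, and with the set term the interval excludes 0 only for H2-K1, B2m, Tapbp and Psmb10 in BiTS against isotype, none of which passed after adjustment.

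Only 1 of 10 members, Tap1, had BiTS and isotype libraries that did not overlap, against 20.8% of all tested genes. The sign of the difference was the same in both sets for 8 of 10 members, against 56.1% of all genes. H2-K1 and Tap1 were ordered isotype, BiTS(mut), BiTS from low to high in both sets, as were 6.53% of all genes. Tapbp and Psmb10 had the opposite order in both sets, as had 5.82%. These are orders of single libraries, without a test.

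The genes between interferon gamma and the class I promoters showed smaller differences than Ifng itself. With the set term, edgeR called 1 of the 6 genes of interferon gamma and its receptor pathway higher in BiTS than in isotype (1.81% of all genes) and 2 lower, Ifng among them (1.59% of all genes). Ifngr1, the ligand-binding receptor chain, was higher (0.35 ± 0.09, adjusted p = 0.0114), and Socs1, the feedback inhibitor of JAK kinases that interferon induces, was lower (-0.33 ± 0.09, adjusted p = 0.0320 by edgeR). None of the 12 transcription factors of class I promoters passed. Irf1 was at 240.9 and 166.8 CPM in isotype and 205.6 and 165.3 CPM in BiTS (-0.12 ± 0.09, adjusted p = 0.545 by edgeR). Of the 10 MHC class II genes, 2 were lower. Ciita, the class II counterpart of Nlrc5, was at 9.69 and 5.23 CPM in isotype, 8.31 and 5.18 CPM in BiTS(mut), and 4.07 and 1.61 CPM in BiTS. It fell by 1.39 ± 0.25 on the log2 scale (adjusted p = 0.000289, edgeR with the set term), from counts as low as 17, and H2-Aa, a class II alpha chain, fell by 0.31 ± 0.09 (adjusted p = 0.0277). Markers of cell types moved in the same fit. Of 11 tested dendritic cell markers 3 were lower, Ccl17 (-1.02 ± 0.14), Ccl22 (-0.73 ± 0.09) and Xcr1 (-0.49 ± 0.14), and of 10 CD8 T cell markers 3 were higher, Cd8a (0.34 ± 0.08), Cd8b1 (0.39 ± 0.08) and Lck (0.41 ± 0.08). Of 4 stromal and endothelial markers 1, Lum, was lower. The summed dendritic cell markers were lowest in BiTS in both sets. Ccr7 and Ccl22 weigh most in that sum, with means of 598.2 and 277.5 CPM. BiTS was below isotype for 9 of 11 tested markers in set 1 (50.2% of all genes) and 7 of 11 in set 2 (49.6%). In set 2 Ccl22 fell from 261.1 to 179.2 CPM, while Flt3, Itgax, Clec9a and Ccr7 were higher in BiTS. The part of the cell type markers in the values above was not tested.

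**Figure D4:**
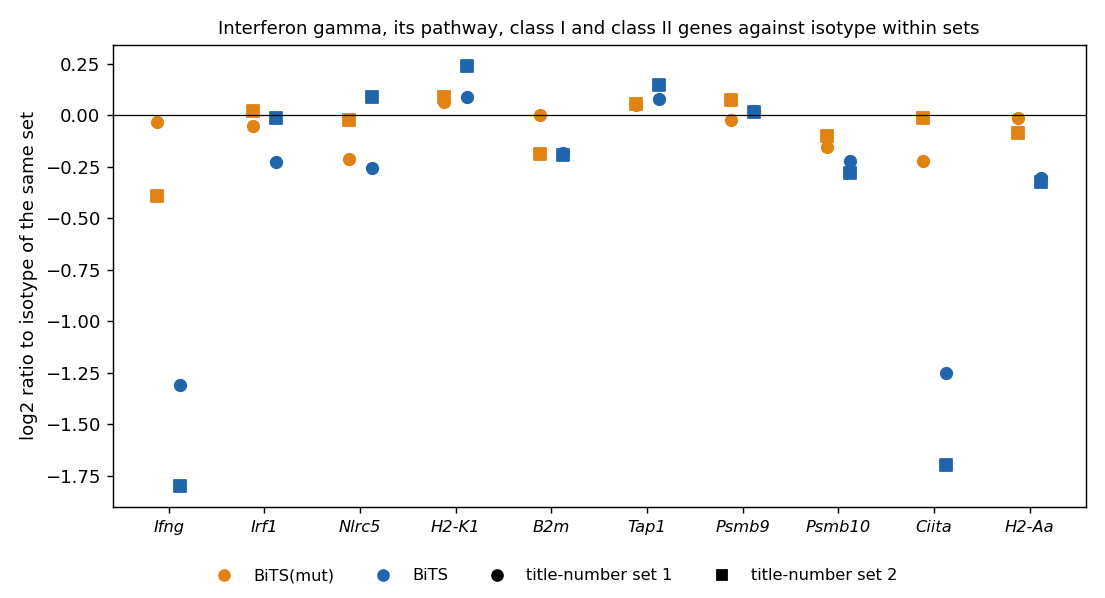
Log2 ratio of CPM to the isotype library of the same set (y axis) for Ifng, the transcription factor gene Irf1, 6 class I members and 2 class II genes; orange is BiTS(mut), blue BiTS, circles set 1, squares set 2. In BiTS, Ifng and Ciita lie below -1.2 in both sets, whereas the class I members lie between -0.28 and 0.24.

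In the remaining lists of the pathway, edgeR with the set term called no gene for BiTS against isotype. These were 13 tested class I-like heavy chains, 7 chaperones and peptide editors of the endoplasmic reticulum, 6 peptidases and 41 further proteasome genes. Proteasome genes mostly had a small negative value in this fit: 16 of 18 subunits of the 19S regulator and 10 of 11 other 20S core subunits had a negative log2 fold change, with medians of -0.07 and -0.09, while 50.9% of all genes were negative. The signs differed by set. In set 1 BiTS was below isotype for 3 of the 18 regulator subunits and 5 of the 11 core subunits (50.2% of all genes), and in set 2 for all 18 and for 10 of 11 (49.6% of all genes). The 3 constitutive catalytic subunits were lower in BiTS in both sets, with a fitted median of -0.19. Class I-like heavy chains had a median of 0.07 and the chaperones of 0.003.

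BiTS against BiTS(mut) sets BiTS against its mutated form and shares the BiTS libraries with the comparison above. With the set term the class I members again did not pass, and Ifng again did, while without that term no gene passed. EdgeR's quasi-likelihood test called 0 of 10 members without the set term (0% of all genes) and 0 of 10 with it (0.972% of all genes), and DESeq2 and limma-voom also called 0. None of the members had an unadjusted p under 0.05 in either fit, against 0.543% and 8.45% of all genes. The fitted log2 fold changes with the set term ran from -0.13 ± 0.08 (Tapbp) to 0.09 ± 0.08 (H2-K1), with a median of -0.02 beside 0.0005 over all genes. The widest interval was that of Psmb10, from -0.31 to 0.06, and H2-K1 ran from -0.07 to 0.25. Tap1 alone, 1 of 10, had libraries that did not overlap, against 16.5% of all genes, and 7 of 10 members had the same sign in both sets, against 56.6%. In this fit Ifng was at -1.35 ± 0.10 (adjusted p = 5.83e-14 by edgeR), Ciita at -1.25 ± 0.25 (adjusted p = 0.00277) and Ifngr1 at 0.36 ± 0.09 (adjusted p = 0.0189). Of the markers, 4 of 11 for dendritic cells (Ccl17, Ccl22, Fscn1 and Ly75) were called lower in BiTS. So were 1 of 10 for CD8 T cells (Cd5) and 1 of 4 for stromal and endothelial cells (Lum). Cd5 went against most of its list: 8 of the 10 CD8 T cell markers had a positive value, with a median of 0.16 and 0 called higher. The part of the markers in these values was not tested. Signs of the small member values depend on the scaling: 7 of 10 were negative with TMM and the set term (49.8% of all genes), but with the set term and spike-in scaling all 10 were positive, as the median of all genes moved to 0.18.

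BiTS(mut) against isotype asks what the mutated form still does and shares the isotype libraries with the first comparison. No member passed in edgeR, DESeq2 or limma-voom: edgeR called 0 of 10 without the set term (0% of all genes) and 0 of 10 with it (0.05% of all genes), and no member had an unadjusted p under 0.05 (0.293% and 4.43% of all genes). The largest fitted values with the set term were those of Psmb10 (-0.13 ± 0.09) and Nlrc5 (-0.12 ± 0.085), with intervals from -0.31 to 0.06 and from -0.29 to 0.05. H2-K1 was at 0.08 ± 0.08 and B2m at -0.09 ± 0.08. For 0 of 10 members did the groups not overlap, against 13.7% of all genes, and 7 of 10 had the same sign in both sets, against 49.1%. Ifng was at -0.23 ± 0.09, with an adjusted p of 0.9997 by edgeR. The other lists of the pathway held no called gene. Under spike-in scaling with the set term all 10 members were negative, where TMM gave 4 of 10 (50% of all genes), and the median of all genes was -0.12.

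Between the title-number sets the class I members differed in both directions. With treatment in the model, edgeR called 5 of 10 members between the sets, close to the 52.7% of all genes it called. Higher in set 2 were 2 members (25.9% of all genes), and lower were 3 (26.9%). B2m was lower by 0.54 ± 0.07 on the log2 scale (adjusted p = 1.57e-09), Tapbp by 0.35 ± 0.07 (adjusted p = 2.62e-05) and H2-K1 by 0.20 ± 0.06 (adjusted p = 0.00810 by edgeR's quasi-likelihood test). Under TMM Psmb10 was higher by 0.50 ± 0.08 (adjusted p = 2.53e-07) and Psmb8 by 0.24 ± 0.07 (adjusted p = 0.00212), but under spike-in scaling they were at -0.26 and -0.52, as the median of all genes moved from 0.02 to -0.74. Directions between the sets are therefore relative to the middle of all genes. The remaining members were H2-D1 at -0.10, Tap1 at -0.07, Nlrc5 at -0.07, Tap2 at -0.06 and Psmb9 at -0.04, each with an interval that held 0 under TMM. Spike-in scaling called H2-K1, B2m, Tapbp, H2-D1, Tap1, Tap2 and Nlrc5 lower. All 10 members were negative there, with a median of -0.83 beside -0.74 over all genes, so these calls hold the shift of all genes too. For 7 of 10 members the libraries of the sets did not overlap, against 55.7% of all genes. H2-K1 and Psmb8 lost their calls when either BiTS(mut) library was left out, at -0.18 and 0.24 on the log2 scale.

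Around the members, most class II genes were lower in set 2 relative to the middle of all genes, and more proteasome genes were higher than lower. Over all tested genes, 25.9% were higher and 26.9% lower, and the counts below stand beside those shares. Of the 10 class II genes 9 were lower (Ciita, H2-Aa, H2-Ab1, H2-Eb1, H2-DMa, H2-DMb1, H2-DMb2, H2-Ob and Cd74), with a list median of -0.91 and Cd74, the invariant chain, at -1.32 ± 0.07. Of the 7 chaperones and editors 6 were lower (Calr, Canx, Pdia3, Erap1, Uggt1 and P4hb), with a median of -0.23, led by P4hb at -0.55 ± 0.07 and the peptide-trimming enzyme gene Erap1 at -0.41 ± 0.08. Among the proteasome genes, all 5 assembly chaperones (Pomp, Psmg1, Psmg2, Psmg3 and Psmg4) were higher, with a median of 0.51. The constitutive catalytic genes Psmb5 (0.53 ± 0.07) and Psmb6 (0.49 ± 0.07) were also higher, while Psmb7 was not called. Of 11 other core subunits 5 were higher (Psma4, Psma7, Psmb1, Psmb3 and Psmb4), and of 4 activators 1, Psme2, at 0.26 ± 0.07, a share near that of all genes. The 19S regulator had 9 of 18 higher (Psmc1, Psmc3, Psmc5, Psmd1, Psmd3, Psmd7, Psmd12, Psmd13 and Adrm1) and 2 lower (Psmc6 and Psmd2).

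The class I-like heavy chains were mixed between the sets. H2-Q2 (-1.45 ± 0.17), Cd1d1 (-1.11 ± 0.26), H2-M3, H2-Q7 and H2-T23 were lower and H2-T24 (0.70 ± 0.18) and H2-Q10 higher. Among the peptidases Lnpep (-0.99 ± 0.08), Npepps and Tpp2 were lower and Thop1 (0.85 ± 0.08) and Blmh higher. The interferon axis split: Ifng was higher in set 2 by 0.98 ± 0.08 and Socs1 by 0.40 ± 0.08, whereas Jak2 (-0.98 ± 0.07), Ifngr2, the signalling receptor chain (-1.12 ± 0.09), Ifngr1 and Jak1 were lower. Of the promoter factors Irf1 (-0.43 ± 0.07), Irf2 (-0.68 ± 0.08), Rfx5, Nfyb, Creb1 and Rela were lower and Rfxank was higher. All these calls are by edgeR at an adjusted p under 0.05, a mark that most tested genes passed between the sets. Dendritic cell markers, summed, were at 1500 to 1829 CPM in set 1 and 1088 to 1181 CPM in set 2, and CD8 T cell markers at 2009 to 2443 and 2531 to 2742 CPM. Of the dendritic cell markers 9 of 11 were lower in set 2 and 1 higher, and of the CD8 T cell markers 6 of 10 were higher and 1 lower. Their part in the set differences of the members was not tested.

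**Figure D5:**
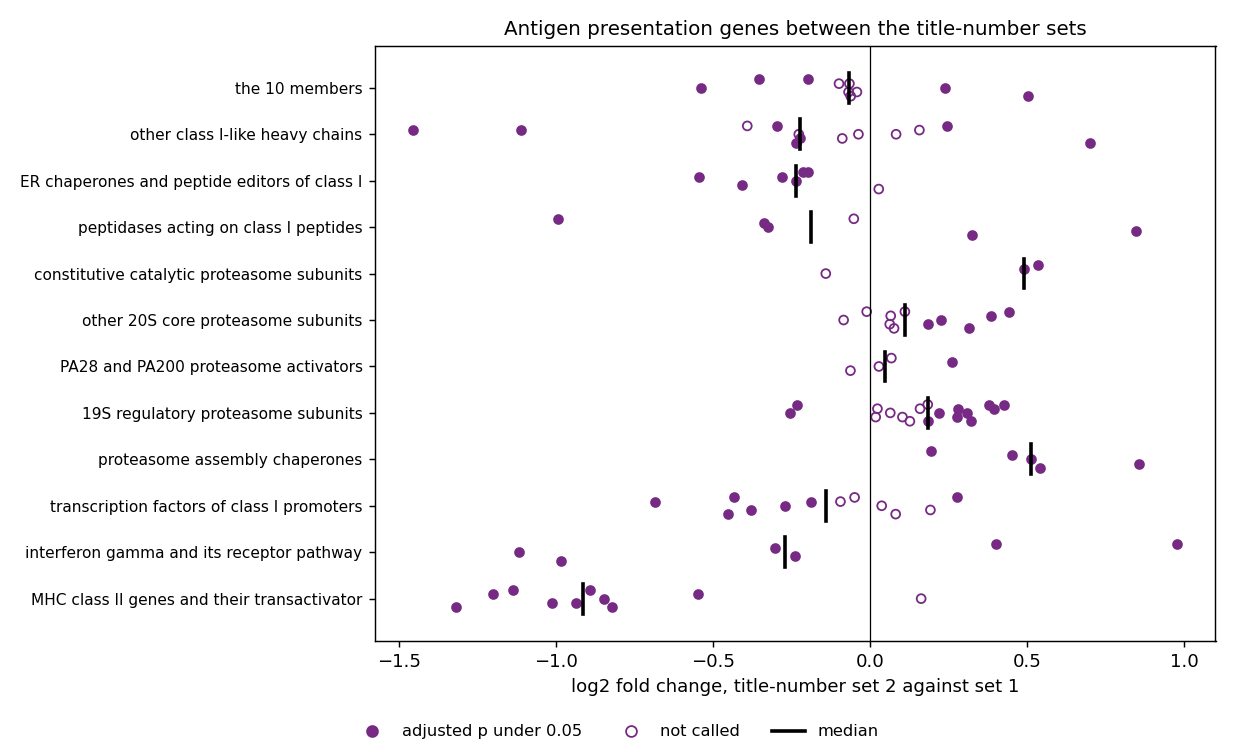
Log2 fold change of set 2 against set 1 (x axis) for each tested gene of the members and 11 lists of the pathway; filled points passed the adjusted p of 0.05 in edgeR, open points did not, and black bars are list medians. The members scatter from -0.54 to 0.50 around a median of -0.07, class II genes lie furthest to the left with a median of -0.91, and assembly chaperones to the right with a median of 0.51.

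Likeness to the members was measured as Pearson's r, over the 6 libraries, between a gene's log2 CPM and the mean standardised log2 CPM of the members, among the 9780 other genes whose mean reached 5 CPM. The closest genes were Gdap10, Dot1l, Stom, Bmpr2 and Lsr, with r from 0.998 to 0.999. These 6 points share the set difference, which the members carry in opposite directions. Psmb8 (r = -0.981) and Psmb10 (-0.913) ran against the mean of the members, and the others ran with it, from 0.463 (Nlrc5) to 0.966 (Tap2). After the mean of each set was subtracted, the closest were Natd1, Nol4l, Susd6, Csf2rb and Sik3, with r from 0.987 to 0.998. The members' own r with that mean then ran from -0.355 (Tap1) to 0.618 (Tap2), so no member followed it closely. With 6 points and 9780 genes the r values of the closest genes are a ranking only.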

How the data were processed

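Bulk RNA-seq was deposited by the authors as 1 table of raw counts per gene for each of 6 libraries, with exon intervals, per the file headers. The submitters' processing notes name mm10 and DESeq2. Aligner, counter and annotation release are not given in the labels, nor is the strand setting. Symbols came by identifier from GENCODE M21 (49412 of 49671 matched; the other 259 held 0.013% of counts). The 92 spike-in transcripts were left out of totals, filter and TMM scaling. Coordinates of genes are those of the deposited tables, and promoter sequences are RefSeq's (GRCm38.p6).

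Counts were fitted in edgeR 4.0.16 (R 4.3.3; filterByExpr, glmQLFit, glmQLFTest, two-sided, Benjamini-Hochberg over 13996 genes, threshold 0.05) on the 6 libraries together, with a coefficient for each group and no set term. The fit with a set term (replicate block) stands beside it because it changed calls of genes named here. Same-set libraries deviated together from their group means (correlations of 0.66, 0.73 and 0.74 over 13996 genes); with 2 libraries a group this pairing is read from the title numbers and the data, not from a stated design. Alternatives were DESeq2 1.42.0, limma-voom (limma 3.58.1), RLE size factors, library totals, spike-in scaling, no filter, a floor of 5 CPM in 2 or more libraries, the 4 compared libraries alone, and each library left out, all also with the set term. The fitting steps were tested on simulated data.

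The members and gene lists were chosen with earlier results of these data known. All 10 members are named; the other pathway lists name each gene called in a fit used, and cell type markers are named where called between treatments. Of 7 listed peptidases 1, Nrdc, had no symbol match.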

Additional observations from a re-analysis of the deposited data

How the results depend on the processing

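No treatment comparison had a called member under any alternative that kept 2 libraries in each group compared. With the replicate block and without isotype replicate 1, calls of members changed for BiTS against isotype. The replicate block, the term for the title-number set, changed the call of no member otherwise, and gave H2-K1 0.17, B2m -0.19, Tapbp -0.22 and Psmb10 -0.25 on the log2 scale for BiTS against isotype. Most member values were close to 0 and several changed sign. The design's part in the fits with a library left out is given below, and other causes were not tested. For BiTS against isotype, Tap2 turned to -0.0024 under DESeq2 and under RLE size factors, each with and without the block, and with no filter on low counts to -0.0060 without the block and -0.0063 with it. Values that changed sign under library totals were, without the replicate block for BiTS against isotype H2-D1 -0.0042, Tap2 -0.025, Psmb9 -0.012, and for BiTS(mut) against isotype Tap2 -0.0025, Psmb8 -0.0062; with it for BiTS against isotype H2-D1 -0.0020, Tap2 -0.024, Psmb9 -0.011, and for BiTS(mut) against isotype Tap2 -0.0015, Psmb8 -0.0054. Values that changed sign under spike-in scaling were, without the replicate block for BiTS against isotype Psmb8 0.038, and for BiTS against BiTS(mut) H2-D1 0.035, Tap2 0.071, Psmb8 0.080, Psmb9 0.087, Psmb10 0.028, and for BiTS(mut) against isotype Tap2 -0.011, Psmb8 -0.042, Psmb9 -0.013; with it for BiTS against isotype Psmb8 0.030, and for BiTS against BiTS(mut) H2-D1 0.15, B2m 0.072, Tap2 0.17, Tapbp 0.036, Psmb8 0.14, Psmb9 0.17, Psmb10 0.058, and for BiTS(mut) against isotype H2-K1 -0.038, H2-D1 -0.063, Tap1 -0.067, Tap2 -0.11, Psmb8 -0.11, Psmb9 -0.099. The comparison of set 2 with set 1 exists only with the set in the model, and there spike-in scaling gave Psmb8 -0.52 and Psmb10 -0.26. With each library left out in turn, with and without the block, the values that crossed 0 ranged for BiTS against isotype H2-D1 -0.031 to 0.084, B2m -0.45 to 0.070, Tap2 -0.034 to 0.041, Nlrc5 -0.21 to 0.047, Psmb8 -0.17 to 0.13, Psmb9 -0.026 to 0.058, Psmb10 -0.49 to 0.015. They ranged for BiTS against BiTS(mut) H2-K1 -0.028 to 0.22, H2-D1 -0.088 to 0.037, B2m -0.41 to 0.26, Tap2 -0.043 to 0.030, Tapbp -0.35 to 0.088, Nlrc5 -0.091 to 0.17, Psmb8 -0.13 to 0.082, Psmb9 -0.054 to 0.042, Psmb10 -0.38 to 0.17. They also ranged for BiTS(mut) against isotype H2-K1 -0.054 to 0.21, H2-D1 -0.012 to 0.12, B2m -0.45 to 0.22, Tap1 -0.0008 to 0.097, Tap2 -0.023 to 0.045, Tapbp -0.30 to 0.11, Nlrc5 -0.25 to 0.010, Psmb8 -0.14 to 0.16, Psmb9 -0.024 to 0.071, Psmb10 -0.42 to 0.15, and for set 2 against set 1 Nlrc5 -0.16 to 0.016. Over these fits the count of members called for BiTS against isotype ranged from 0 to 3, and the count between the sets from 3 to 5, the lower value without BiTS(mut) replicate 1 or replicate 2. With all libraries, library totals and spike-in scaling also changed which members were called between the sets. The median of all genes was then at -0.03 and -0.74. In the fits with a library left out, a group with 1 library is assumed to vary like the others. Without the block, such a group lies in 1 set only. Its difference from another group then takes in part of the set difference by construction. Ratios of plain counts, without division by exon length, were 5.24 for Psmb8 over Psmb5, 1.28 for Psmb9 over Psmb6 and 0.589 for Psmb10 over Psmb7 over the 6 libraries, where the ratios per kb were 1.67, 0.657 and 1.18; the length is the cause by construction. Leaving out each library in turn for these ratios was added after seeing the data. The isotype libraries carry the replicate numbers 1 and 4, so the pairing comes from the title numbers. The lowest count of a member was 699, and the effect of depth on the calls was not tested.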
